A study of Rattus norvegicus with 6 samples.

Results

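The 6 genes Srebf2, Scap, Insig1, Insig2, Mylip and Stard4 were taken from the deposited liver table by their symbols, as the genes of sterol sensing and of LDL receptor control. They are 6 of 25926 features, and all 6 averaged 1 FPKM or more over the samples, as did 11362 features in all (FPKM counts fragments normalised for transcript length and library size). Livers came from 3 TPN rats, which were fed by total parenteral nutrition (all nutrients infused into a vein) over 7 days and carried the disease label PNALD (parenteral nutrition-associated liver disease), and from 3 control rats, which were given 0.9% saline. The strain is Sprague-Dawley and the labelled age 4 weeks for every animal, and no allele or transgene is named for either group. Each sample was total RNA of liver from a separately labelled rat.

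SREBP2, the product of Srebf2, is a membrane-bound transcription factor that switches on the genes of cholesterol synthesis and uptake. SCAP escorts it from the endoplasmic reticulum to the Golgi, where proteases release its active part, and when sterols are plentiful INSIG1 or INSIG2 holds the SCAP and SREBP complex back in the endoplasmic reticulum. Insig1 and Srebf2 are themselves SREBP targets, whereas rodent liver also makes Insig2 from a start site of its own that insulin represses. MYLIP, also called IDOL, is a ubiquitin ligase induced by the sterol receptor LXR that marks the LDL receptor for degradation, and STARD4 is a soluble protein that carries cholesterol between membranes.

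SREBP and its partner NF-Y are known to bind close to the start of their targets. The promoters shown are those of the 4 genes whose windows held a motif marked below. Scap held neither motif and is not shown. The sequences are RefSeq windows of build GRCr8, printed as the 250 bases before a start site on the strand of the gene. Capitals mark TCACNCCA, the sterol regulatory element with its last base left free, and CCAAT, the box bound by NF-Y, each on either strand (an inverted CCAAT reads as ATTGG). The windows lie at chr7:115543057-115543306 on the plus strand for Srebf2, and on the minus strand at chr4:8057770-8058019 for Insig1, chr13:35040099-35040348 for Insig2 and chr17:19514472-19514721 for Mylip.
Srebf2: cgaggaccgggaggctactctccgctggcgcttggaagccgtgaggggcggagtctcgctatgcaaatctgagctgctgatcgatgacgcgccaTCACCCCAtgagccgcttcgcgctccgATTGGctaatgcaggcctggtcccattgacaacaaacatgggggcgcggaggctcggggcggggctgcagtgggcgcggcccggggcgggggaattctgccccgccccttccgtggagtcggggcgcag
Insig1: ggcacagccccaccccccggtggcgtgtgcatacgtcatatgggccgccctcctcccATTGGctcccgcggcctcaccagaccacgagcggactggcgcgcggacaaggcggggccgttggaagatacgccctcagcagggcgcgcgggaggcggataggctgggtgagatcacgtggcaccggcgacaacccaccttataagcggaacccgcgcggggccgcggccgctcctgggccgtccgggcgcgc
Insig2: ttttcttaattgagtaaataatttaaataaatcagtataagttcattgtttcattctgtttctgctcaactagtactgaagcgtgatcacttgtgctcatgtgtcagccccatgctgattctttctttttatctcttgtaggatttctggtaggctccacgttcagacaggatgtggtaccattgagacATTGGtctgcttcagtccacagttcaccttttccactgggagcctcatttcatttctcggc
Mylip: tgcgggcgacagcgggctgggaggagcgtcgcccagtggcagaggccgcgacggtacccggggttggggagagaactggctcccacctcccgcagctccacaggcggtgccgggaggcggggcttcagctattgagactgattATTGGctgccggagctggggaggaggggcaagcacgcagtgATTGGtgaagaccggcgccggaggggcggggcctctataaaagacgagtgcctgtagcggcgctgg

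Motifs were searched on both strands of windows from 250 bases before to 50 bases after the start, for 5 of the 6 members (Srebf2, Scap, Insig1, Insig2 and Mylip) and for all 33469 windows of the table. No window was given for Stard4, and 16 were given for the 21 enzymes of cholesterol synthesis. The element written in full as TCACNCCAC was in none of the 5 members, in 0 of 16 windows of cholesterol synthesis enzymes and in 1.12% of all windows. With its last base free it was in Srebf2 alone among the 5, as TCACCCCA on the strand of the gene with its first base 156 bases before the start, in 1 of the 16 enzyme windows and in 3.89% of all windows. That form was chosen after the windows had been read. Exact strings were searched, so a window without a match may still hold another form of the element. The box CCAAT was in 4 of the 5, Scap being the exception, in 13 of the 16 enzyme windows and in 37.5% of all windows. Insig1, Srebf2 and Insig2 each held it once, inverted, with its first base 193, 129 and 61 bases before the start, and Mylip held it at 107 and 66 bases before the start. The GC box GGGCGG was in 4 of the 5, Insig2 being the exception, in 13 of the 16 enzyme windows and in 33.1% of all windows. The E-box CACGTG was in Insig1 and Scap, 79 and 50 bases before the start, in 1 of the 16 enzyme windows and in 6.42% of all windows. The shorter form of the sterol element lies inside the longer one, and no other pair of these motifs shares its letters in that way. Of the 250 bases before the start, G and C made up 72.8% in Insig1, 68.4% in Srebf2, 68.4% in Mylip, 58.8% in Scap and 40.0% in Insig2. The Insig2 window belongs to a start 12839 bases inside the outermost end annotated for that gene, and the Srebf2 window to one 533 bases inside, so other start sites of these genes were not searched.

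Across the 6 genes, Stard4, Insig1, Srebf2 and Scap had lower FPKM in every TPN rat than in any control rat. Insig2 was lower on average with groups that overlapped, and Mylip averaged 2.44 FPKM in TPN and 2.45 FPKM in control. None of the 6 passed limma's test across all 11362 features at a Benjamini-Hochberg adjusted p under 0.05, where 0.22% of features were lower and 0.0264% higher. At an unadjusted p under 0.05, 4 of the 6 were lower and 0 higher, against 7.01% of all features lower and 4.44% higher. The same 4 were lower without overlap between the groups, against 9.09% of all features, and 0 were higher without overlap, against 8.02%. The median log2 fold change of FPKM + 1 was -0.69 over the 6 genes and 0.0065 over all features tested. Log2 fold changes are on that log2(FPKM + 1) scale, which understates the change of low genes, whereas a plain fold is a ratio of mean FPKM, and the genes were chosen with earlier results of these data known. In whole liver, a lower value may stand for fewer cells that use a gene or for less RNA per cell, and these cannot be told apart.

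**Figure D1:**
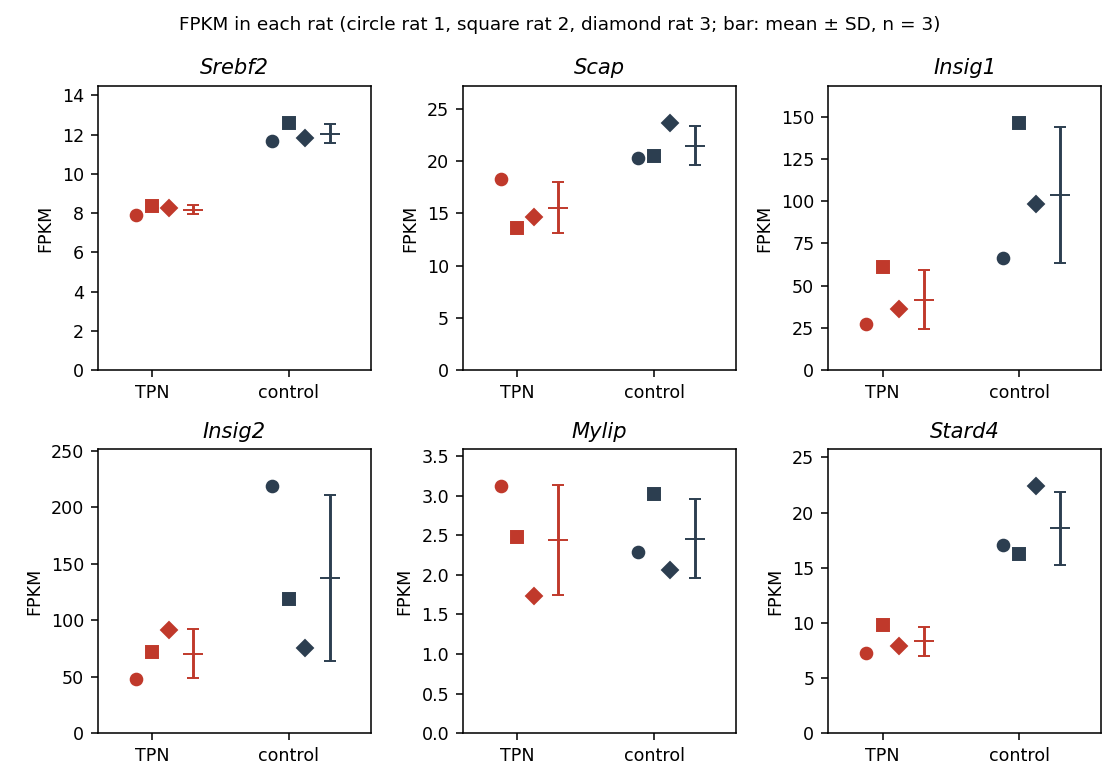
FPKM of each of the 6 genes (y axes, each from 0) in 3 TPN rats (red) and 3 control rats (dark), with a circle, square and diamond for rats 1, 2 and 3 and a bar for the mean ± SD. The groups do not overlap for Srebf2, Scap, Insig1 and Stard4, and they overlap for Insig2 and Mylip.

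Before the single genes, the libraries are set out by their markers. All 8 hepatocyte markers, among them Alb and Ttr, were above 1 FPKM on average, and their summed FPKM ran from 40045 to 67859 in TPN rats and from 60264 to 81122 in control rats. Summed markers were lower in all TPN rats for erythroid cells (4 markers, 230 to 577 FPKM in TPN and 2122 to 2414 in control), stellate cells (5 markers, 12.8 to 19.5 FPKM in TPN and 23.4 to 37.96 in control) and cholangiocytes (5 markers, 6.34 to 8.10 FPKM in TPN and 10.6 to 13.9 in control). They overlapped for Kupffer cells (6 markers, 277 to 402 FPKM in TPN and 214 to 324 in control) and endothelial cells (4 markers, 50.1 to 62.3 FPKM in TPN and 42.6 to 69.97 in control). No marker of these types was at 0 in all rats, while Krt7, Sox9, Spp1 and Des had means under 1 FPKM. The part of these differences in the results for the 6 genes was not tested.

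Srebf2 (ENSRNOG00000007400), which encodes SREBP2, had 7.91, 8.37 and 8.27 FPKM in TPN rats 1, 2 and 3, against 11.7, 12.6 and 11.8 FPKM in control rats 1, 2 and 3. The rats of each group lay close together and the highest TPN rat was below the lowest control rat. The mean was 8.18 ± 0.243 FPKM in TPN and 12.04 ± 0.489 FPKM in control (SD, n = 3 each), 1.47-fold lower in TPN, with a log2 fold change of -0.51 (SE 0.13, 95% interval -0.82 to -0.20, limma unadjusted p = 0.0056, adjusted p = 0.225). The coefficient of variation, 2.97% in TPN and 4.06% in control, was the smallest of the 6 genes in either group. In the order of all 11362 features by unadjusted p, Srebf2 stood at 283.

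Scap (ENSRNOG00000020853), the escort of SREBP2, had 18.3, 13.6 and 14.7 FPKM in TPN rats 1, 2 and 3, against 20.3, 20.5 and 23.7 FPKM in the control rats. The groups did not overlap, and TPN 1 lay nearest to the controls. The mean was 15.5 ± 2.45 FPKM in TPN and 21.5 ± 1.88 FPKM in control (SD, n = 3 each), 1.38-fold lower in TPN, with a log2 fold change of -0.45 (SE 0.17, 95% interval -0.84 to -0.060, limma unadjusted p = 0.029, adjusted p = 0.378). Within a rat, the ratio of Scap to Srebf2 was 2.31, 1.63 and 1.77 in TPN rats 1, 2 and 3 and 1.74, 1.62 and 1.999 in control rats 1, 2 and 3. That ratio, 1.90 ± 0.361 in TPN and 1.79 ± 0.192 in control, overlapped between the groups (exact permutation test, 2-sided p = 0.8).

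Insig1 (ENSRNOG00000006859), the retention protein that is itself an SREBP target, had 27.2, 61.1 and 36.4 FPKM in TPN rats 1, 2 and 3, against 66.5, 146 and 98.2 FPKM in the control rats. The groups did not overlap, but TPN 2 lay just under control 1, and in each group the highest rat had over 2 times the lowest (2.24 times in TPN and 2.202 times in control). The mean was 41.6 ± 17.5 FPKM in TPN and 103.7 ± 40.2 FPKM in control (SD, n = 3 each), 2.49-fold lower in TPN, the largest fold of the 6 genes, with a log2 fold change of -1.30 (SE 0.37, 95% interval -2.16 to -0.44, limma unadjusted p = 0.0084, adjusted p = 0.262). TPN 1, the lowest for Insig1, and control 2, the highest, were also the rats with the most acute-phase RNA of their groups. The mean log2(FPKM + 1) of 16 acute-phase genes was 11.9, 10.4 and 10.3 in TPN rats 1, 2 and 3 and 9.07, 10.9 and 9.33 in control rats 1, 2 and 3, and the part of this in the Insig1 values was not tested. Without those 2 rats the log2 fold change of Insig1 was -0.76 (limma adjusted p = 0.328). They were the lowest TPN rat and the highest control rat for Insig1, so leaving them out shrinks the difference whatever the acute-phase values.

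In that acute-phase list 13 of 16 tested genes were positive (median log2 fold change 1.12), 0 passed over all features, and 3 were higher and 0 lower at limma's unadjusted p under 0.05. The shares of all features at that p were 4.44% higher and 7.01% lower. Lcn2, an iron-binding protein, had 9127, 172 and 77.2 FPKM in TPN rats and 3.68, 112 and 7.29 FPKM in control rats, so control 2 was above TPN 3. The other genes with the largest differences were A2m, Orm1 and Hamp, with log2 fold changes of 3.92, 2.58 and -2.81 (limma adjusted p = 0.495, 0.5002 and 0.63).

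Insig2 (ENSRNOG00000002478), the other retention protein, had 48.2, 71.8 and 91.2 FPKM in TPN rats 1, 2 and 3, against 218, 119 and 75.5 FPKM in the control rats. Control 1 was by far the highest, and control 3 lay below TPN 3, so the groups overlapped. The mean was 70.4 ± 21.5 FPKM in TPN and 138 ± 73.3 FPKM in control (SD, n = 3 each), with a log2 fold change of -0.87 (SE 0.41, 95% interval -1.82 to 0.083, limma unadjusted p = 0.068, adjusted p = 0.476). Without control 1 the log2 fold change was -0.47 (limma adjusted p = 0.999), and without control 3 it was -1.23 (adjusted p = 0.512).

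Because FPKM is scaled to length, the INSIG transcripts can be added and set against each other within a rat. Together Insig1 and Insig2 had 75.4, 133 and 128 FPKM in TPN rats 1, 2 and 3 and 285, 265 and 174 FPKM in control rats 1, 2 and 3, a mean of 112 ± 31.7 FPKM in TPN and 241 ± 59.4 FPKM in control (SD, n = 3 each), without overlap. The ratio of Insig1 to Insig2 was 0.565, 0.851 and 0.399 in TPN rats 1, 2 and 3, so Insig2 was the more abundant in all 3. In control rats it was 0.304, 1.23 and 1.301, so Insig2 was the more abundant in control 1 only. The log2 ratio differed by -0.44 (TPN minus control), which was within the spread of the rats (exact permutation test, 2-sided p = 0.6). It was -1.11 without control 1, -0.71 without TPN 2, -0.17 without TPN 3, -0.11 without control 2 and -0.076 without control 3. The ratio of both INSIG transcripts to Scap was 4.12, 9.76 and 8.69 in TPN rats 1, 2 and 3 and 14.01, 12.96 and 7.34 in control rats 1, 2 and 3, which overlapped (exact permutation test, 2-sided p = 0.3). These were 3 ratios in all, each with a Benjamini-Hochberg adjusted p of 0.8, and 3 rats against 3 cannot give an exact p under 0.10. The ratios to Scap and to Srebf2 were added after the data were seen.

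**Figure D2:**
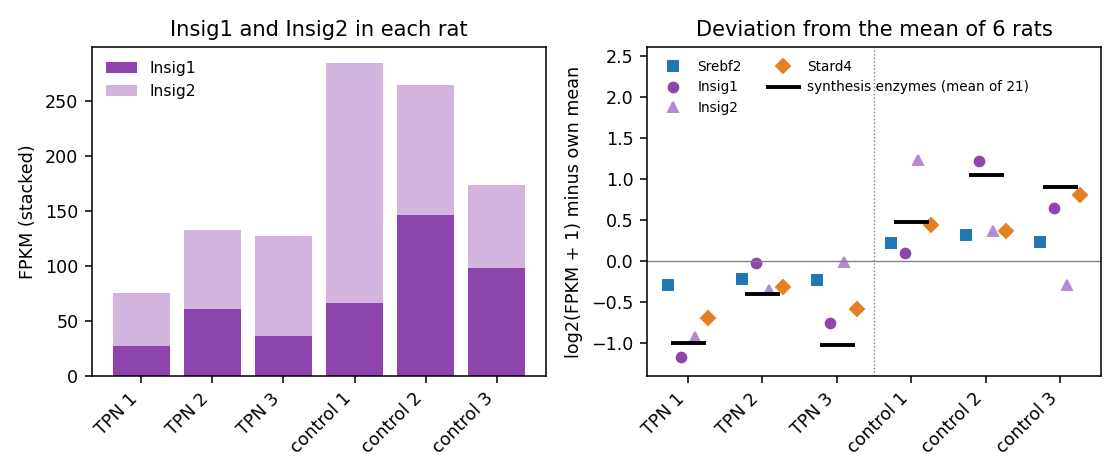
Left, FPKM of Insig1 and Insig2 stacked for each rat, with sums of 75.4 to 133 FPKM in TPN and 174 to 285 FPKM in control. Right, log2(FPKM + 1) of Srebf2, Insig1, Insig2 and Stard4 minus the mean of each gene over the 6 rats, with black bars for the mean of 21 cholesterol synthesis enzymes; Insig2 is highest in control 1, and the enzymes and Insig1 are highest in control 2.

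Stard4 (ENSRNOG00000020468), the cholesterol carrier, had 7.28, 9.80 and 7.95 FPKM in TPN rats 1, 2 and 3, against 17.1, 16.2 and 22.4 FPKM in the control rats. Every TPN rat was below 10 FPKM and every control rat above 16 FPKM. The mean was 8.34 ± 1.303 FPKM in TPN and 18.6 ± 3.34 FPKM in control (SD, n = 3 each), 2.23-fold lower in TPN, with a log2 fold change of -1.06 (SE 0.18, 95% interval -1.49 to -0.64, limma unadjusted p = 0.000445, adjusted p = 0.0873). Stard4 stood at 57 of the 11362 features by unadjusted p, nearest to the threshold among the 6 genes, and its log2 fold change stayed between -1.17 and -0.93 when each rat was left out in turn.

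Mylip (ENSRNOG00000017579), the ubiquitin ligase of the LDL receptor, had 3.12, 2.48 and 1.73 FPKM in TPN rats 1, 2 and 3, against 2.28, 3.01 and 2.06 FPKM in the control rats. The groups lay over each other. The mean was 2.44 ± 0.694 FPKM in TPN and 2.45 ± 0.499 FPKM in control (SD, n = 3 each), with a log2 fold change of -0.015 (SE 0.19, limma unadjusted p = 0.94, adjusted p = 0.985). The 95% interval ran from -0.47 to 0.44, so these rats do not tell a change of either sign within it from no change. The sign turned with the scaling (0.0048 after quantile normalisation and 0.00021 as TPM).

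**Figure D3:**
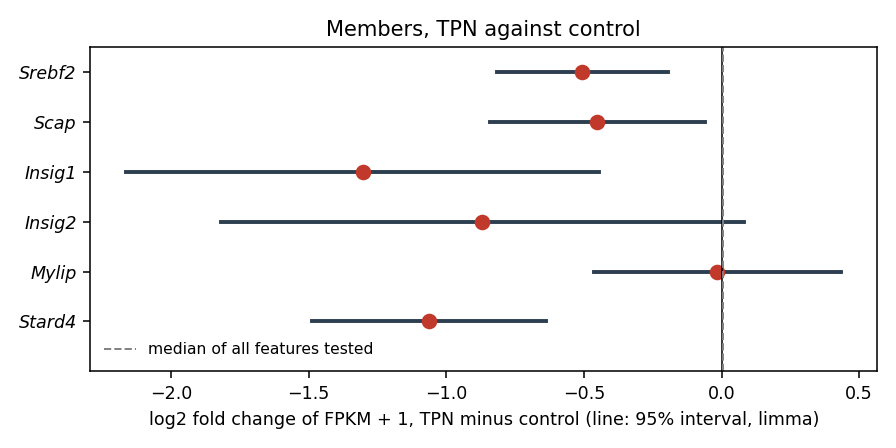
Log2 fold change of FPKM + 1, TPN minus control, for the 6 genes (points) with limma's 95% interval (lines); the dashed line is the median of all features tested, 0.0065. The intervals of Srebf2, Scap, Insig1 and Stard4 lie below 0, and those of Insig2 and Mylip cross 0.

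By mean FPKM over the 6 rats the order was Insig2 (104), Insig1 (72.6), Scap (18.5), Stard4 (13.5), Srebf2 (10.1) and Mylip (2.45). Insig1 was above Scap, Scap above Stard4 and Srebf2 above Mylip in 6 of 6 rats. Insig2 and Insig1 were not separated, since Insig2 was the higher in 3 TPN rats but in 1 control rat. Stard4 and Srebf2 were not separated either, since Stard4 was the higher in 1 TPN rat and in 3 control rats. In control rats Stard4 thus exceeded Srebf2, with the ratio of Stard4 to Srebf2 running from 0.92 to 1.89 over all 6 rats.

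Features with the most similar profile were sought for the 3 members that varied most, Insig1, Insig2 and Stard4, as those with the smallest root mean square difference in centred log2(FPKM + 1) over the 6 rats among 6538 other features of at least 5 FPKM. This likeness includes the difference between the groups. For Insig1, the second and the third were Fdps, the farnesyl diphosphate synthase, with 76.6, 176 and 84.4 FPKM in TPN and 227, 339 and 333 FPKM in control (difference 0.227), and Fdft1, the squalene synthase, with 17.6, 29.6 and 15.5 FPKM in TPN and 43.3, 64.7 and 50.4 FPKM in control (difference 0.238). For Insig2 the nearest were Fdx1, a ferredoxin of mitochondria, with 24.4, 32.98 and 38.2 FPKM in TPN and 83.8, 48.4 and 46.2 FPKM in control (difference 0.227), then Tmem135 (0.284) and Coq8a (0.291), each of them highest in control 1. For Stard4 they were Rgn, the calcium-binding protein regucalcin, with 229.8, 315 and 245 FPKM in TPN and 501, 430 and 632 FPKM in control (difference 0.068), then Mknk2, a protein kinase (0.156), and Tecr, a reductase of fatty acid elongation (0.167). Insig1 and Insig2 thus followed different rats among the controls, Insig1 with control 2 highest and Insig2 with control 1 highest.

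Among the other genes of SREBP processing and of sterol-regulated degradation, 18 of 27 had positive log2 fold changes, against 5788 of all 11362 features. Of 28 listed genes 27 were matched and tested, 0 passed in either direction over all features, 1 was lower and 0 were higher at limma's unadjusted p under 0.05, and the median log2 fold change was 0.090. At that p 7.01% of all features were lower and 4.44% higher. Mbtps1, the Golgi protease that makes the first cut of SREBP, had 17.95 ± 0.152 FPKM in TPN and 19.1 ± 0.0703 FPKM in control (SD, n = 3 each; log2 fold change -0.085, limma adjusted p = 0.872). Mbtps2, the protease of the second cut, had 2.21 ± 0.238 FPKM in TPN and 2.15 ± 0.173 FPKM in control (adjusted p = 0.967 by limma). Srebf1, the sister factor that drives fatty acid synthesis, had 31.6 ± 18.2 FPKM in TPN and 23.98 ± 11.3 FPKM in control (log2 fold change 0.32, limma adjusted p = 0.869). The largest differences in the list were Pgrmc1, a membrane heme-binding protein, with 335 ± 126 FPKM in TPN and 554 ± 91.8 FPKM in control (log2 fold change -0.78, limma adjusted p = 0.416), Sec23b, a coat protein of vesicles leaving the endoplasmic reticulum (0.55), Spring1 (0.52), and Ube2g2, a ubiquitin-conjugating enzyme (0.51). The last 3 had limma adjusted p from 0.579 to 0.63. Spring1 is listed in the table as RGD1562310.

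The enzymes of cholesterol synthesis, textbook targets of SREBP2, all had negative log2 fold changes. In this list 21 of 21 were tested, 4 passed over all features, all lower, 20 were lower at limma's unadjusted p under 0.05, 18 were lower without overlap, and the median log2 fold change was -1.49. Of all features, 0.22% passed as lower, 7.01% were lower at that unadjusted p and 9.09% were lower without overlap. Tm7sf2, a sterol reductase, and Msmo1, the methylsterol monooxygenase, were among the 4 (log2 fold changes -3.30 and -2.41, limma adjusted p = 0.0166 and 0.0422). All 4 calls were lost without TPN 3, without control 1, without control 3, with no filter, and after median-ratio scaling or quantile normalisation, while Tm7sf2 alone passed without TPN 2, and 2 passed without TPN 1, with a pseudocount of 0.01 and without trend or robust settings. With the replicate number as a block 7 enzymes passed. Hmgcs1, the HMG-CoA synthase, had 46.95, 53.8 and 28.3 FPKM in TPN and 178, 422 and 211 FPKM in control (log2 fold change -2.57, limma adjusted p = 0.0564), and Acat2 a log2 fold change of -2.29 (limma adjusted p = 0.0751). Sqle, the squalene epoxidase, had 8.38, 12.6 and 3.17 FPKM in TPN and 19.5, 49.7 and 39.1 FPKM in control (limma adjusted p = 0.213). The mean log2(FPKM + 1) of the 21 enzymes was 3.83, 4.43 and 3.81 in TPN rats 1, 2 and 3 and 5.31, 5.88 and 5.73 in control rats 1, 2 and 3. In both groups the order of the rats for the enzymes had the same top rat as Insig1, TPN 2 and control 2. The log2 fold changes of Srebf2 and Scap, -0.51 and -0.45, were smaller in size than those of 20 of the 21 enzymes.

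Among LXR and its targets, the group to which Mylip belongs, 13 of 15 listed genes were tested and 0 passed over all features. At limma's unadjusted p under 0.05, 2 were lower and 0 higher, against 7.01% and 4.44% of all features. The median log2 fold change was 0.0075 (6 negative, 7 positive). Nr1h3, which encodes LXR-alpha, had 60.7 ± 12.8 FPKM in TPN and 56.6 ± 0.658 FPKM in control (SD, n = 3 each; limma adjusted p = 0.93). Abca1, the exporter of cholesterol to HDL, had 24.2, 16.8 and 19.1 FPKM in TPN and 11.7, 15.9 and 16.4 FPKM in control, higher in every TPN rat by values alone (log2 fold change 0.42, limma adjusted p = 0.48). Scd, a desaturase, had 90.1 ± 93.3 FPKM in TPN and 342 ± 139 FPKM in control (log2 fold change -2.35, limma adjusted p = 0.325). Abcg8 and Abcg5, the subunits of a sterol exporter, had log2 fold changes of -1.64 and -1.20 (limma adjusted p = 0.195 and 0.443), and Lpl, the lipoprotein lipase, of 0.60 (adjusted p = 0.583). Without overlap between the groups, Scd, Abcg8 and Abcg5 were lower and Abca1 alone was higher. These were 3 and 1 of the 13 genes, against 9.09% and 8.02% of all features.

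Among the other START domain proteins, the family of Stard4, 10 of 14 listed genes reached a mean of 1 FPKM, 0 passed over all features, 1 was lower and 0 were higher at limma's unadjusted p under 0.05, and the median log2 fold change was -0.072. At that p 7.01% of all features were lower and 4.44% higher. Stard13 had 5.97 ± 0.764 FPKM in TPN and 9.48 ± 0.144 FPKM in control (SD, n = 3 each; log2 fold change -0.59, limma adjusted p = 0.199). Stard3 and Stard5, which bind sterols, and Stard10, a phospholipid carrier, had log2 fold changes of -0.12, -0.15 and -0.23 (limma adjusted p from 0.757 to 0.852). The log2 fold change of Stard4, -1.06, was larger in size than that of each of these 10 relatives.

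Of 21 listed genes of sterol movement and esterification 19 were tested, 0 passed over all features, 3 were lower and 1 higher at limma's unadjusted p under 0.05, and the median log2 fold change was -0.031. The shares of all features at that p were 7.01% lower and 4.44% higher. Npc1, which exports cholesterol from lysosomes, had 11.9, 11.2 and 10.6 FPKM in TPN and 22.9, 12.6 and 21.2 FPKM in control (log2 fold change -0.66, limma adjusted p = 0.348). Soat1, which esterifies cholesterol, had 5.06, 4.10 and 2.76 FPKM in TPN and 1.76, 2.796 and 1.04 FPKM in control (log2 fold change 0.81, limma adjusted p = 0.325), so TPN 3 lay just under control 2. The oxysterol-binding relatives Osbpl11 and Osbpl1a had log2 fold changes of -0.96 and -0.60 (limma adjusted p = 0.428 and 0.195).

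In the list of lipoprotein uptake receptors, their adaptors and partners of MYLIP, 15 of 17 genes were tested, 0 passed over all features, 1 was lower and 0 were higher at limma's unadjusted p under 0.05, and the median log2 fold change was 0.068. At that p 7.01% of all features were lower and 4.44% higher. Lipc, the hepatic lipase, had 18.2, 69.4 and 55.4 FPKM in TPN and 207, 91.2 and 171 FPKM in control (log2 fold change -1.81, limma adjusted p = 0.303). Lrpap1, a chaperone of this receptor family, and Dab2, an endocytic adaptor, had log2 fold changes of -0.37 and 0.31 (limma adjusted p = 0.476 and 0.573).

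**Figure D4:**
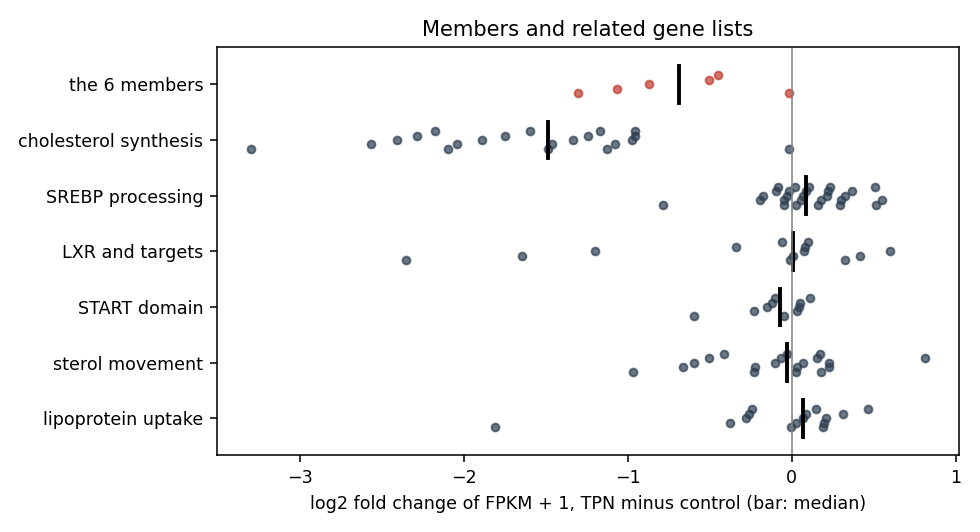
Log2 fold change of FPKM + 1, TPN minus control, of each tested gene (points) in the 6 members (red) and in 6 related lists (dark), with the median as a bar. The medians are -0.69 for the members and -1.49 for cholesterol synthesis, and lie between -0.072 and 0.090 for the other 5 lists.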

How the data were processed

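RNA was measured in the livers of 3 TPN and 3 control rats, and titles gave the groups. RNA was isolated with TRIzol and libraries followed Illumina methods, per the labels' protocols. Bowtie 0.12.2, Cufflinks and the rat build Rnor_6.0 are named per the submitters' processing notes, with no roles given. The authors deposited 1 table of FPKM, which holds no counts. Ratios between samples of values under 0.3 FPKM put at most 0.905% in any bin of 0.01 (log2), so no steps of whole reads were seen, sequencing depth is not known and counting intervals are not given.

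Features averaging 1 FPKM or more were tested as log2(FPKM + 1) in R 4.3.3 (limma 3.58.1 and statmod 1.5.0), with trend and robust moderation, a model of group alone, p from both tails, and Benjamini-Hochberg adjustment over all 11362 features at 0.05. Folds are ratios of mean FPKM. Ratios within a rat were tested by exact permutation (scipy 1.17.1). The fit was tested on simulated data. The members and the 7 gene lists were chosen with earlier results of these data known. Named genes were the members, the 4 genes of each list with the largest absolute log2 fold change whatever their test, 8 names set in the design, and for members deviating by a root mean square of at least 0.5 the 3 features nearest in profile, of which 1 is not reported here. Symbols were matched in the table or through RefSeq synonyms, which matched Spring1 and Cert1. Promoters are from RefSeq (GRCr8), and protein sequences were not used here. The design text names 3 rats per group, and no label names litters or batches. Alternatives were other pseudocounts, filters, scalings, moderation, the replicate block, summed rows and left-out rats. Figures were drawn with matplotlib 3.10.9.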

Additional observations from a re-analysis of the deposited data

How the results depend on the processing

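The log2 fold changes of Srebf2, Scap, Insig1, Insig2 and Stard4 stayed negative under all 18 alternatives, and none of the 6 genes passed at an adjusted p under 0.05 under any (limma adjusted p from 0.0637 for Insig1 to 0.999). With the replicate number as a block (replicate block), Insig1 had an adjusted p of 0.0637 and Stard4 of 0.13 by limma. The deviations of same-numbered rats had correlations of -0.21, -0.14 and 0.32, and not every rat deviated most like its own number. The largest correlation, 0.418, was between TPN 1 and control 2. Deviations of only 3 rats around each group mean constrain these correlations, so they cannot show whether the numbers pair the rats. Ranges on leaving out each rat were -0.52 to -0.48 for Srebf2, -0.57 to -0.37 for Scap, -1.62 to -1.02 for Insig1, -1.23 to -0.47 for Insig2, -1.17 to -0.93 for Stard4 and -0.15 to 0.14 for Mylip. Mylip, which no fit called, was positive without TPN 3 (0.14), without control 2 (0.099), after quantile normalisation (0.0048) and as TPM (0.00021), and was not tested with a minimum of 5 FPKM. The members at an unadjusted p under 0.05 numbered 3 or 4 under every alternative, and 4 without control 2 and TPN 1. Srebf2, Insig1 and Stard4 were always among them, but Scap was not. By limma its unadjusted p was 0.052 to 0.117 on leaving out any rat but TPN 1. It was 0.058 after quantile normalisation and 0.054 with the replicate block. Without control 3, Insig2 (limma unadjusted p = 0.0125) was among the 4 in place of Scap. The background moved more: by limma, 397 of 11315 features were lower at that p without control 1. Without TPN 3 it was 1003 of 11369, and the members numbered 3 in both settings. The count of features called lower, 25, was 16 with a pseudocount of 0.1, 5 with 0.01, 0 with no filter, 6 with a minimum mean of 5 FPKM, 0 after median-ratio scaling, 0 after quantile normalisation, 8 without trend or robust settings, 52 with the replicate block, 77 without control 2 and TPN 1, and 0 to 35 on leaving out each rat. The count called higher, 3, was 0 with a pseudocount of 0.01, with no filter, with a minimum mean of 5 FPKM, after either scaling and without trend or robust settings, 6 with the block, 44 without control 2 and TPN 1, and 0 to 11 on leaving out each rat. The counts of 0 without a filter stood beside 1227 lower and 671 higher features at an unadjusted p under 0.05 by limma, those after median-ratio scaling beside 877 and 679, and those after quantile normalisation beside 827 and 764. The cause of these shifts was not tested. The count of member promoters with the exact string of the sterol element was 0 in full and on the sense strand alone, and 1 with its last base free. Depth is unknown, so what it limits could not be given.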

Other observations

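Usp2, a deubiquitinase that counters MYLIP, ranged widely within both groups, with 0.487, 8.70 and 18.8 FPKM in TPN rats 1, 2 and 3 and 0.691, 3.97 and 11.9 FPKM in control rats 1, 2 and 3 (log2 fold change 0.47, SE 1.14, limma adjusted p = 0.924). Srebf1 also differed between rats of a group, with 14.4, 29.7 and 50.6 FPKM in TPN rats 1, 2 and 3 and 24.02, 12.7 and 35.2 FPKM in control rats 1, 2 and 3.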
